A study of Homo sapiens with 24 samples.

Results

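Sterol and fatty acid synthesis was followed through 32 genes, listed by symbol for their textbook roles: 18 enzymes from acetyl-CoA to cholesterol, 5 regulators, 6 enzymes of fatty acid synthesis and 3 proteins that move sterols. All 32 had an entry among the 22446 gene symbols of the data, with MSMO1 under its older symbol SC4MOL and SC5DL itself an older symbol of SC5D, and all 32 were among the 11933 genes tested. The cells were A2780, an established line from epithelial ovarian cancer, in RPMI medium with fetal bovine serum. They were kept at normal oxygen (normoxia) or in a chamber at 1% oxygen (hypoxia) for 6 hr, 48 hr or 6 days. Each of these 6 groups had 2 libraries of total RNA depleted of ribosomal RNA: they are numbered 1, 2 (normoxia), 3, 4 (hypoxia) for 6 hr, then 5, 6 and 7, 8 for 48 hr, and 9, 10 and 11, 12 for 6 days. No genotype or other agent differs between the groups, all results come from a single line, and nothing in the labels says whether paired libraries came from separate cultures. The p-values therefore measure the spread between these libraries, which may be technical.

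Cells build cholesterol from acetyl-CoA through mevalonate, farnesyl diphosphate, squalene and lanosterol, and fatty acids from acetyl-CoA through malonyl-CoA. The SREBP transcription factors switch on most genes of both pathways when sterols run low: SCAP carries them from the endoplasmic reticulum to the Golgi for cleavage, and INSIG proteins hold SCAP back when sterols are plentiful. Several steps consume molecular oxygen, among them those of SQLE, CYP51A1, MSMO1, SC5DL and SCD.

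Values are RPKM, reads per kilobase of transcript per 1e6 reads, which corrects for gene length. Low values in the precursor miRNA table of the same libraries lie on steps of whole reads and imply 25.2 to 51.8 M reads per library. The median absolute difference between the libraries of a group over all tested genes was 0.0886 to 0.126 on the log2 scale in 5 groups and 0.204 between libraries 1 and 2. The labels were checked with 6 known hypoxia genes, whose summed level was 31.6 to 33.1 RPKM in normoxia and 113.9 to 124 RPKM in hypoxia at 6 hr, and 48.7 to 50.1 against 300.003 to 334 RPKM at 6 days. Of 10 markers of epithelial ovarian lines, KRT18 and EPCAM were at 23.7 to 42.2 RPKM in every library and KRT8 at 0.615 to 1.96 RPKM. KRT19, CDH1, PAX8, WT1, MUC16, CLDN3 and CLDN4 did not pass the filter on low values. Of 6 leukocyte and 5 endothelial markers, 0 passed that filter.

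Most of the pathway was lower in hypoxia at 6 days, and few of its genes differed before. At 6 hr, 1 of the 32 genes was higher in hypoxia and 0 were lower by limma's test with Benjamini-Hochberg adjusted p under 0.05, also 0 lower at unadjusted p under 0.05. Over all genes tested, 3.39% were higher and 0.201% lower. At 48 hr, 5 were higher and 1 lower, where the background was 9.24% and 2.89%. At 6 days, 3 were higher and 22 lower, which is 68.8% of the 32 genes against a background of 18.3% lower, and of 23.9% higher, over all genes tested. The median log2 fold change of the 32 genes, computed on log2(RPKM + 0.5), was -0.01 at 6 hr, 0.09 at 48 hr and -0.66 at 6 days, and that of all tested genes was 0.04, 0.01 and 0.04. In each of the 22 genes that fell at 6 days, both hypoxic libraries were below both normoxic libraries. With 2 libraries a group this largely follows from the call. Its share over all tested genes was not computed, so it adds no support to the calls.

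**Figure D1:**
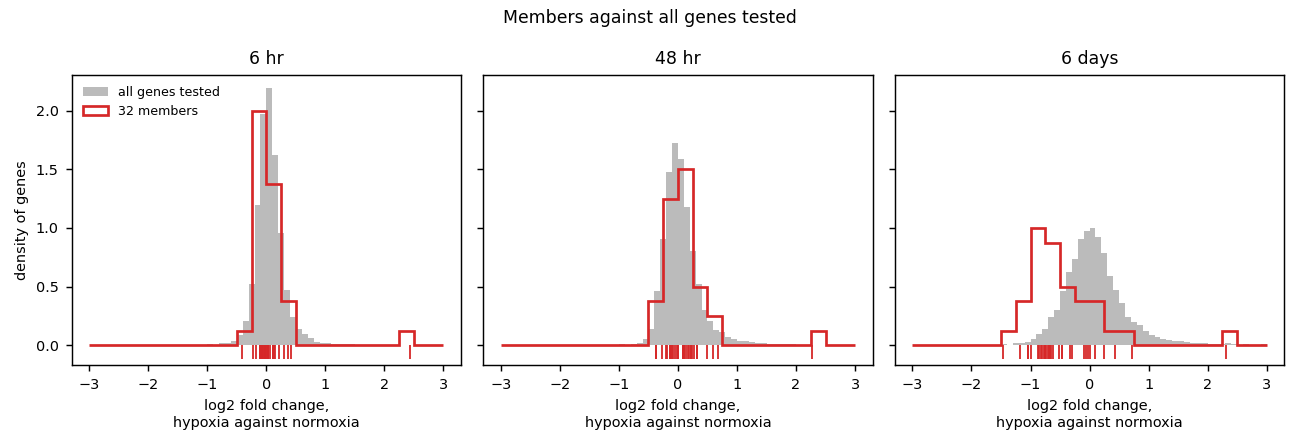
Distribution of the log2 fold change of hypoxia against normoxia at 6 hr, 48 hr and 6 days for all tested genes (grey) and for the 32 genes (red outline, each gene a red tick); the y axis is the density of genes. At 6 hr and 48 hr the red outline lies over the grey one apart from INSIG2 at the right, and at 6 days it lies to the left, with a median of -0.66.

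**Figure D2:**
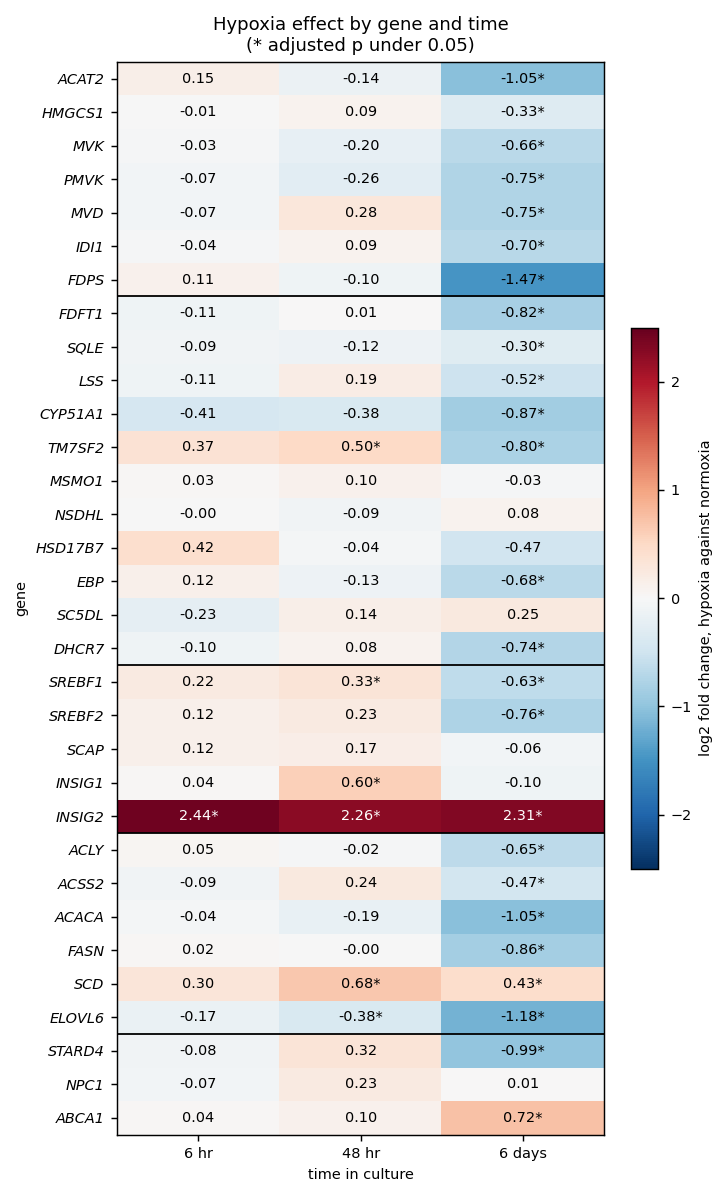
Log2 fold change of hypoxia against normoxia for each gene (vertical) at each time (horizontal), blue where lower and red where higher in hypoxia, with a star at adjusted p under 0.05; lines part the roles, from mevalonate steps at the top to sterol movement at the bottom. The 6-day column holds 22 starred blue cells, and INSIG2 is starred at all 3 times.

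The early steps fell as a block at 6 days. All 7 genes of the mevalonate and isoprenoid steps were lower in hypoxia, with log2 fold changes from -1.47 to -0.33 and a median of -0.75. Over all genes tested 18.3% were lower. At 6 hr and at 48 hr 0 of the 7 passed in either direction. Of all genes, 3.39% were higher and 0.201% lower at 6 hr, and 9.24% and 2.89% at 48 hr.

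FDPS, which builds geranyl and farnesyl diphosphate for sterols and for protein prenylation, changed most of all 32 genes among those that fell. Its level at 6 days was 67.0 and 66.4 RPKM in normoxia and 26.03 and 21.7 RPKM in hypoxia. At 48 hr the same gene stood at 74.2 and 68.2 RPKM in normoxia and 68.2 and 64.6 RPKM in hypoxia, so that the hypoxic libraries dropped between 48 hr and 6 days. The log2 fold change at 6 days was -1.47 (SE 0.13, adjusted p = 1.13e-05).

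ACAT2, the cytosolic thiolase that joins acetyl-CoA into acetoacetyl-CoA, was at 17.6 and 17.2 RPKM in normoxia and 8.08 and 8.26 RPKM in hypoxia at 6 days. At 48 hr it had stood at 33.4 and 31.3 RPKM in normoxia and 28.4 and 30.1 RPKM in hypoxia. It thus fell with time at normal oxygen too, and ended lower in hypoxia, with a log2 fold change of -1.05 (SE 0.10, adjusted p = 1.78e-05). ACAT2 overlaps TCP1 in RefSeq, and how the authors' counting treated such overlaps is unknown here, so its level is uncertain to that extent.

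MVD decarboxylates mevalonate diphosphate to isopentenyl diphosphate. At 48 hr it was at 5.94 and 5.18 RPKM in normoxia and 6.63 and 7.01 RPKM in hypoxia, and at 6 days at 4.59 and 4.74 RPKM against 2.38 and 2.77 RPKM. Hypoxic libraries were the higher ones at 48 hr, without passing the test (log2 fold change 0.28, adjusted p = 0.11), and the lower ones at 6 days (-0.75, SE 0.10, adjusted p = 0.000209).

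The remaining genes of this group are the kinases MVK and PMVK, the isomerase IDI1 and HMGCS1, which makes HMG-CoA. PMVK was at 17.1 and 19.0 RPKM in normoxia and 11.1 and 9.90 RPKM in hypoxia at 6 days, and IDI1 at 23.1 and 20.1 RPKM against 13.1 and 13.0 RPKM. Their log2 fold changes were -0.75 and -0.70. MVK was at 2.37 and 3.20 RPKM against 1.82 and 1.32 RPKM, a log2 fold change of -0.66. HMGCS1 fell least, from 14.04 and 14.4 RPKM to 11.9 and 10.6 RPKM (log2 fold change -0.33, adjusted p = 0.024). The call on HMGCS1 was lost without library 9, 10 or 12, with adjusted p of 0.077 to 0.164, and that on MVK without library 10 or 12, with adjusted p of 0.0708 to 0.0748.

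From squalene on, 7 of 11 genes were lower in hypoxia at 6 days and 0 higher, beside 18.3% and 23.9% of all genes tested. FDFT1, which condenses farnesyl diphosphate into squalene, was at 27.1 and 31.1 RPKM in normoxia and 16.1 and 16.3 RPKM in hypoxia (log2 fold change -0.82, SE 0.10, adjusted p = 9.48e-05). LSS, which closes the rings of lanosterol, was at 3.55 and 3.93 RPKM against 2.62 and 2.29 RPKM, a log2 fold change of -0.52. The isomerase EBP was at 11.8 and 12.8 RPKM against 7.99 and 6.94 RPKM, and the reductase DHCR7, which works at the end of the route, at 13.4 and 16.5 RPKM against 8.83 and 8.64 RPKM. Their log2 fold changes were -0.68 and -0.74. In all 4 genes the groups did not overlap, which largely follows from the calls and adds no support to them.

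TM7SF2, a sterol reductase that works after CYP51A1, moved in both directions. Its level was 4.66 and 4.26 RPKM in normoxia and 5.84 and 7.22 RPKM in hypoxia at 48 hr, where it rose by 0.50 on the log2 scale (SE 0.14, adjusted p = 0.0467). At 6 days it was at 8.39 and 7.73 RPKM in normoxia and 4.37 and 4.45 RPKM in hypoxia, a log2 fold change of -0.80 (SE 0.14, adjusted p = 0.00125). Normoxic libraries rose with time and hypoxic ones fell. The call at 48 hr was lost in 13 alternatives, among them quantile normalization and no filter on low values, with adjusted p of 0.0555 to 0.296.

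The 5 enzymes that use oxygen did not share a direction at 6 days. SQLE, the squalene epoxidase, was at 12.2 and 12.5 RPKM in normoxia and 10.8 and 9.22 RPKM in hypoxia. Its log2 fold change was -0.30 (SE 0.09, adjusted p = 0.0208 by limma's test). CYP51A1, which demethylates lanosterol, was at 15.3 and 12.7 RPKM against 6.45 and 8.48 RPKM (log2 fold change -0.87, SE 0.27, adjusted p = 0.0234). Both were lower in hypoxia without overlap, which again largely follows from the calls. The SQLE call was lost without library 9, 10 or 12 (adjusted p 0.0694 to 0.196), and the CYP51A1 call without library 9 or 11 or with no filter (adjusted p 0.0642 to 0.141).

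MSMO1, which oxidises the methyl groups of sterol intermediates, was at 18.9 and 15.4 RPKM in normoxia and 17.9 and 15.6 RPKM in hypoxia at 6 days, and its groups overlapped. SC5DL, a sterol desaturase, was at 2.75 and 2.82 RPKM against 3.33 and 3.46 RPKM, higher in both hypoxic libraries without passing the test (log2 fold change 0.25, adjusted p = 0.161). SCD, described with the fatty acid genes, was higher. The median of the 5 was -0.03, beside -0.69 for the 18 enzymes of sterol synthesis, which include 4 of the 5.

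Libraries 1 and 2, both normoxia at 6 hr, lay apart on several of the 32 genes, among them CYP51A1, SREBF2, HSD17B7 and TM7SF2. CYP51A1 was at 8.63 RPKM in library 1 and 18.1 RPKM in library 2, and at 8.12 and 10.6 RPKM in hypoxia. The log2 fold change at 6 hr was -0.41 (adjusted p = 0.494), and without library 1 it was -0.92 (adjusted p = 0.0261). Without library 1, TM7SF2 and HSD17B7 also passed at 6 hr, both higher in hypoxia, and the count of called genes went from 1 to 4.

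NSDHL and HSD17B7 act together with MSMO1 in removing methyl groups. NSDHL was at 3.14 and 3.37 RPKM in normoxia and 3.29 and 3.67 RPKM in hypoxia at 6 days, and HSD17B7 at 4.62 and 4.75 RPKM against 3.76 and 2.77 RPKM. NSDHL overlapped between groups. HSD17B7 did not, and its log2 fold change of -0.47 missed the threshold (adjusted p = 0.0547).

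Among the regulators, INSIG2 stood apart from every other gene of the 32. INSIG2 holds SCAP in the endoplasmic reticulum. It was at 1.63 and 1.59 RPKM in normoxia and 10.5 and 11.3 RPKM in hypoxia at 6 hr, at 2.02 and 1.93 against 12.6 and 10.3 RPKM at 48 hr, and at 4.76 and 3.87 against 23.9 and 22.8 RPKM at 6 days. Every hypoxic library exceeded every normoxic library of any time. The log2 fold changes were 2.44, 2.26 and 2.31 (SE 0.12 each), or 5.41-, 4.81- and 4.97-fold, with adjusted p of 4.21e-07, 3.15e-07 and 1.29e-07. It was the only gene of the 32 called at all 3 times.

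INSIG1, the paralog whose own gene is switched on by SREBP, took another course. It was at 5.29 and 5.09 RPKM in normoxia and 5.25 and 5.42 RPKM in hypoxia at 6 hr, at 6.51 and 6.87 against 10.6 and 10.1 RPKM at 48 hr, and at 8.45 and 8.20 against 7.94 and 7.52 RPKM at 6 days. It was higher in hypoxia at 48 hr by 0.60 on the log2 scale (SE 0.08, adjusted p = 0.000504), and at 6 days the fold change of -0.10 did not pass (adjusted p = 0.331).

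The SREBP genes themselves were lower at 6 days. SREBF2, whose product drives the sterol genes most strongly, was at 20.3 and 20.2 RPKM in normoxia and 10.8 and 12.8 RPKM in hypoxia (log2 fold change -0.76, SE 0.15, adjusted p = 0.00221). At 48 hr it had been at 9.96 and 9.97 against 10.7 and 12.9 RPKM. SREBF2 thus rose with time in normoxia, by 0.99 on the log2 scale (adjusted p = 0.00021), and its hypoxic libraries at 6 days were within the range of those at 48 hr.

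SREBF1, which favours fatty acid genes, was at 14.6 and 13.7 RPKM in normoxia and 17.6 and 18.1 RPKM in hypoxia at 48 hr, and at 13.8 and 14.3 against 8.77 and 9.06 RPKM at 6 days. It rose by 0.33 on the log2 scale at 48 hr (adjusted p = 0.029) and had a log2 fold change of -0.63 at 6 days (adjusted p = 0.000208). The call at 48 hr was lost when any single library of that time was left out (adjusted p 0.0801 to 0.189). SCAP stayed between 6.48 and 9.46 RPKM in all 12 libraries and passed at none of the 3 times in hypoxia against normoxia.

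SREBF2 and SREBF1 each carry a precursor of the miR-33 family in an intron, known to repress ABCA1 and other lipid genes. The mature strands are shown because they share a seed (bases 2 to 8, in capitals) while the host genes differ; sequences are RefSeq's, on GRCh38.p14, for miR-33a at chr22:41900949-41900969 on the plus strand and for miR-33b at chr17:17813897-17813916 on the minus strand.
hsa-miR-33a-5p: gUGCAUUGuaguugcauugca
hsa-miR-33b-5p: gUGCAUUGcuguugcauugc
RPKM values in the deposited precursor table imply 12 reads of the miR-33a precursor over all 12 libraries, in 5 of them. For the miR-33b precursor they imply 14 reads, in 8 libraries. The miR-33a precursor did not pass limma's test at 6 hr, 48 hr or 6 days (adjusted p = 0.989, 0.992 and 0.58), and that of miR-33b was below the filter. At a few reads per library a difference was not detectable at this depth. The table holds precursors, so the level of the mature strands was not measured.

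Fatty acid synthesis was split between SCD and the rest. At 6 days 5 of 6 genes were lower in hypoxia and SCD was higher, beside 18.3% and 23.9% of all genes tested. ACACA, the carboxylase that commits acetyl-CoA to fatty acids, was at 22.2 and 23.6 RPKM in normoxia and 10.5 and 11.1 RPKM in hypoxia (log2 fold change -1.05, SE 0.08, adjusted p = 3.38e-06). FASN, which builds palmitate, was at 15.7 and 17.2 against 8.77 and 8.95 RPKM (log2 fold change -0.86, SE 0.10, adjusted p = 5.34e-05). ELOVL6, which lengthens palmitate, was at 17.4 and 17.3 against 7.36 and 7.35 RPKM (log2 fold change -1.18, SE 0.11, adjusted p = 1.25e-05). In these genes both hypoxic libraries were below both normoxic ones, which again largely follows from the calls.

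ELOVL6 was the only gene of the 32 that was already lower at 48 hr, at 13.96 and 16.5 RPKM in normoxia and 11.4 and 11.7 RPKM in hypoxia (log2 fold change -0.38, adjusted p = 0.0434). That call was lost in 11 alternatives (adjusted p 0.0548 to 0.303). ACLY, which cuts citrate into acetyl-CoA, was at 46.2 and 52.2 against 30.7 and 31.7 RPKM at 6 days. ACSS2, which makes acetyl-CoA from acetate, was at 8.58 and 9.39 against 6.52 and 6.21 RPKM. Their log2 fold changes were -0.65 and -0.47.

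SCD, which puts the double bond into stearate and palmitate with the help of oxygen, had the highest median level of the 32 genes over the 12 libraries on the per-length scale, 93.5 RPKM, although ACLY was above it in normoxia at 48 hr, at 78.8 and 82.8 RPKM. SCD was at 64.5 and 57.99 RPKM in normoxia and 77.2 and 73.7 RPKM in hypoxia at 6 hr, at 70.5 and 73.0 against 121 and 109.7 RPKM at 48 hr, and at 139.8 and 146 against 197 and 188 RPKM at 6 days. Hypoxic libraries were above normoxic ones at each time. The log2 fold change was 0.30 at 6 hr without passing (adjusted p = 0.153), 0.68 at 48 hr (SE 0.10, adjusted p = 0.00111) and 0.43 at 6 days (SE 0.10, adjusted p = 0.00573).

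**Figure D3:**
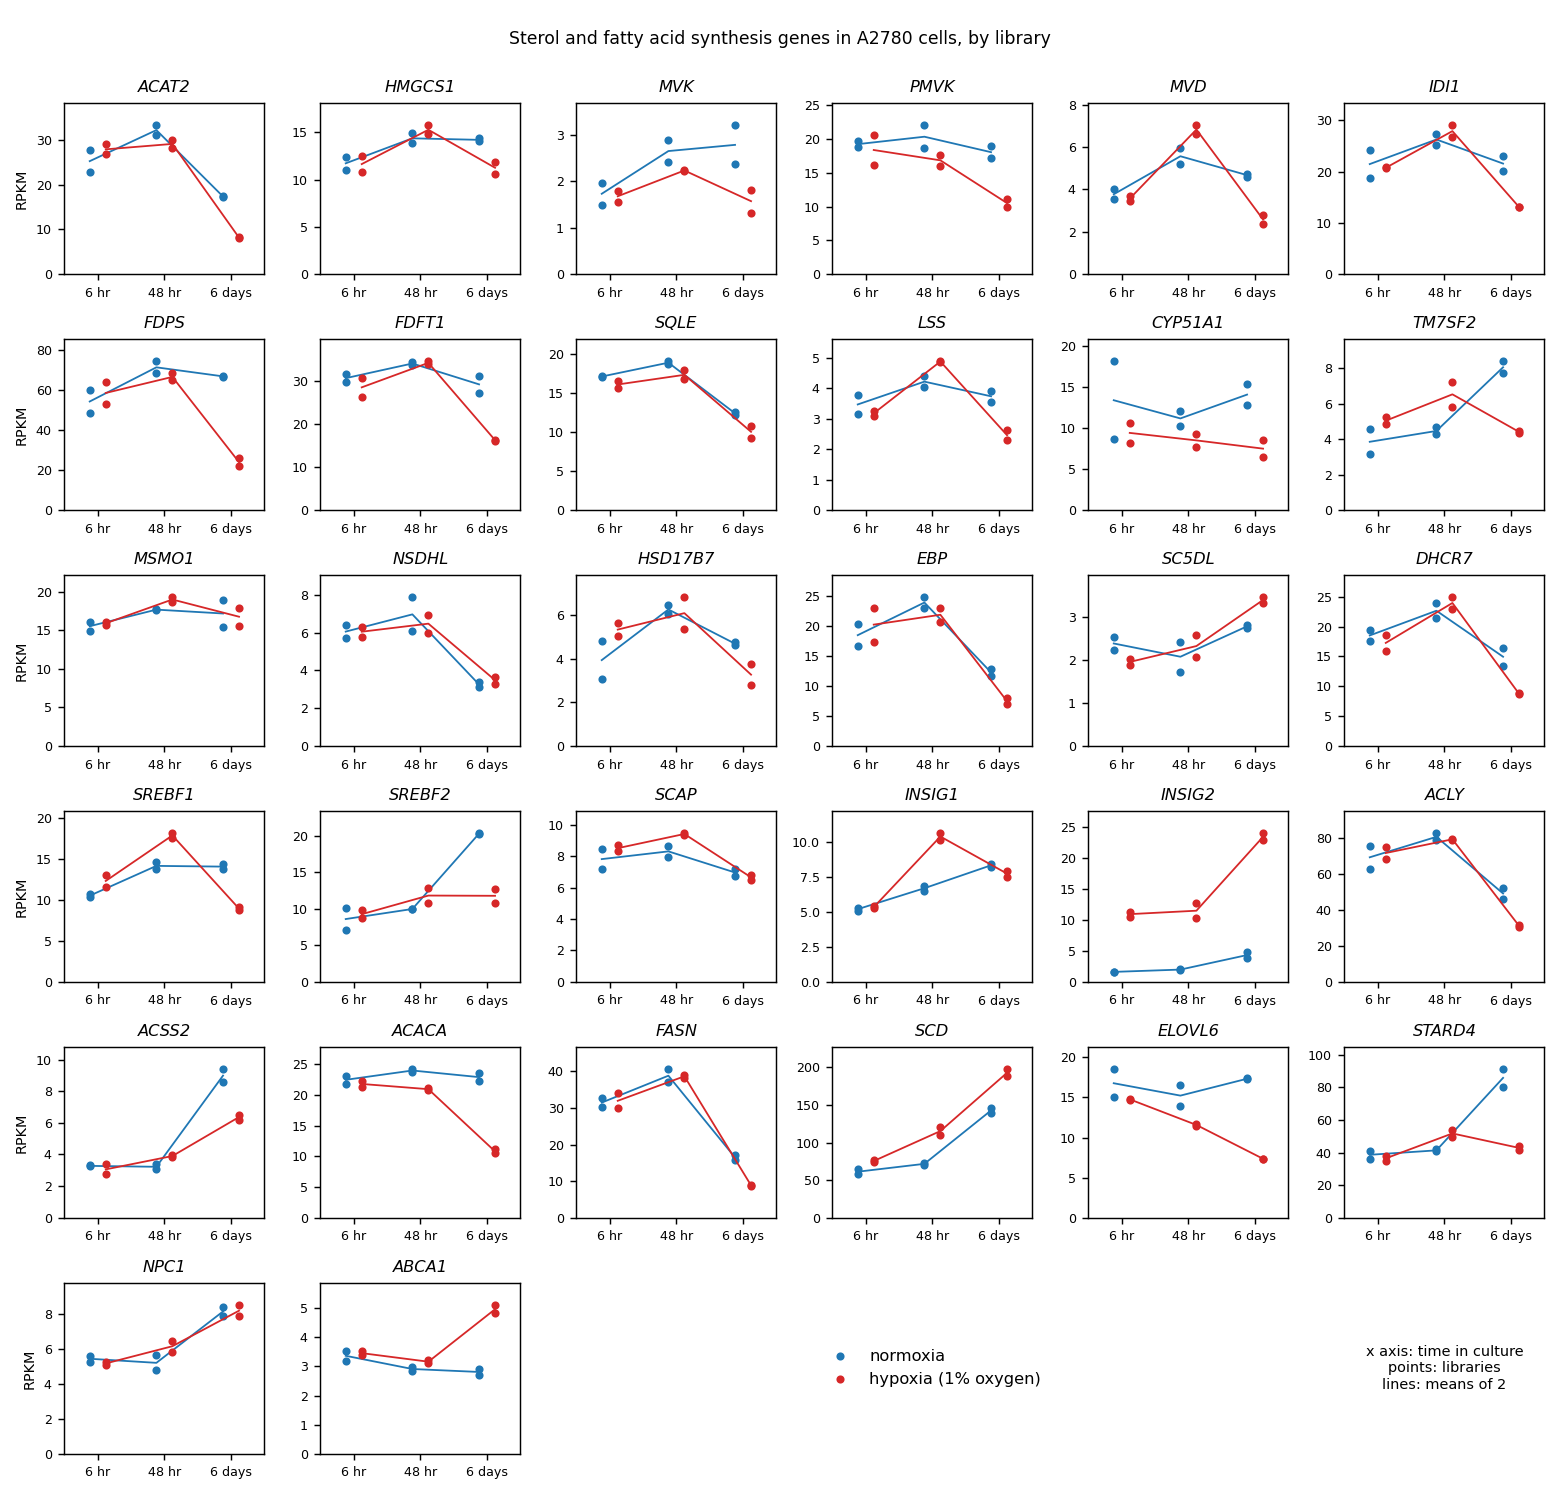
Level in RPKM (vertical, from 0) of each of the 32 genes in each library (points) at 6 hr, 48 hr and 6 days, normoxia in blue and hypoxia in red, with lines through the means of 2 libraries. INSIG2 and SCD are higher in hypoxia in every pair of groups, and FDPS, ACACA and ELOVL6 part from normoxia at 6 days.

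The 3 genes of sterol movement went 3 ways. STARD4, a soluble carrier of cholesterol, was at 91.2 and 80.6 RPKM in normoxia and 44.1 and 41.7 RPKM in hypoxia at 6 days (log2 fold change -0.99, SE 0.10, adjusted p = 3.43e-05). ABCA1, which exports cholesterol to apolipoproteins, was at 2.71 and 2.91 against 4.82 and 5.10 RPKM and was higher in hypoxia (log2 fold change 0.72, SE 0.09, adjusted p = 0.000104). NPC1, which lets cholesterol out of late endosomes, was at 7.89 and 8.43 against 7.89 and 8.52 RPKM, with a log2 fold change of 0.01 (adjusted p = 0.962).

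Averaged over the 3 times in an additive model, 2 of the 32 genes were higher in hypoxia (INSIG2 and SCD) and 4 lower (PMVK, CYP51A1, ACACA and ELOVL6), beside 15.3% and 7.13% of all genes tested. The log2 fold changes were 2.34 and 0.47 for the former and -0.36, -0.55, -0.43 and -0.58 for the latter. With no filter on low values the 6 became 3. The calls on PMVK (adjusted p 0.0511 to 0.0753), CYP51A1 (0.0505 to 0.0697) and ACACA (0.0525 to 0.0957) were lost in 8, 7 and 7 alternatives, most of them with a single library left out.

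Whether the effect of hypoxia differed between times was tested by contrasts in the same model. From 6 hr to 48 hr it changed in 0 of the 32 genes by limma's test, with 5 higher and 0 lower at unadjusted p under 0.05, and in 0.511% (higher) and 0.0168% (lower) of all genes. INSIG1 was nearest to the threshold, with a change of 0.56 (adjusted p = 0.0592), and it passed under quantile normalization or trimmed-mean centring. From 48 hr to 6 days the effect became lower in 17 genes and higher in 1, beside 5.31% and 5.38% of all genes. The 17 were 8 enzymes of sterol synthesis, SREBF1, SREBF2, INSIG1, STARD4 and the 5 fatty acid genes other than SCD, and the gene that went up was ABCA1. The greatest changes were -1.37 for FDPS, -1.31 for STARD4, -1.30 for TM7SF2 and -1.03 for MVD.

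In HMGCS1, MVK, PMVK, SQLE, CYP51A1 and EBP, all lower at 6 days, the change in effect since 48 hr did not pass. For SCD the effect was 0.68 at 48 hr and 0.43 at 6 days, and the change of -0.25 did not pass either (adjusted p = 0.284). For INSIG2 it was 0.05 (adjusted p = 0.872).

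The same 32 genes were also compared between times within each oxygen level. These comparisons use the same libraries as those above and are set beside them as values. From 6 hr to 48 hr in normoxia 0 of the 32 genes passed in either direction by limma's test, with 14 higher and 0 lower at unadjusted p under 0.05, and 0.00838% and 0.0838% of all genes were higher and lower. Without library 1, 7 of the 32 were called higher: ACAT2, MVD, IDI1, FDPS, HSD17B7, SREBF1 and INSIG1. In hypoxia over the same interval 7 were higher (MVD, LSS, DHCR7, SREBF1, INSIG1, SCD and STARD4) and 0 lower, with 1 lower at unadjusted p under 0.05, beside 4.94% and 0.905% of all genes. That count was 2 without library 4 or 7 and 3 without library 8.

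From 48 hr to 6 days in normoxia 9 genes rose and 8 fell, which is 28.1% and 25% of the 32, near or below the 27.0% and 32.4% of all genes. In hypoxia 6 rose and 23 fell, 18.8% and 71.9% of the 32, beside 30.4% and 32.4% of all genes. ACAT2, SQLE, NSDHL, EBP, DHCR7, SCAP, ACLY and FASN fell in both. FASN was the gene with the greatest drop, by 1.21 on the log2 scale in normoxia and by 2.06 in hypoxia. SC5DL, INSIG2, ACSS2, SCD and NPC1 rose in both, ACSS2 by 1.35 in normoxia and 0.64 in hypoxia.

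A further 12 genes fell with time in hypoxia with no call in normoxia, namely HMGCS1, MVK, PMVK, MVD, IDI1, FDPS, FDFT1, LSS, HSD17B7, SREBF1, ACACA and ELOVL6. For MVD, IDI1, FDPS, FDFT1, LSS, SREBF1, ACACA and ELOVL6 the difference between hypoxia and normoxia in this change passed its own test. TM7SF2, INSIG1 and STARD4 rose in normoxia and fell in hypoxia. STARD4, for example, rose by 1.04 on the log2 scale (adjusted p = 1.03e-05) in normoxia and fell by 0.27 (adjusted p = 0.0417) in hypoxia. ABCA1 rose in hypoxia with no call in normoxia, and CYP51A1 and MSMO1 passed in neither. Calls that were lost when single libraries or settings changed were those of SCAP, SC5DL and INSIG1 in normoxia and of MVK, STARD4, SC5DL, TM7SF2 and NPC1 in hypoxia, with adjusted p of such losses up to 0.379 for STARD4. With quantile normalization HMGCS1, SREBF1 and ACACA were called higher with time in normoxia.

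**Figure D4:**
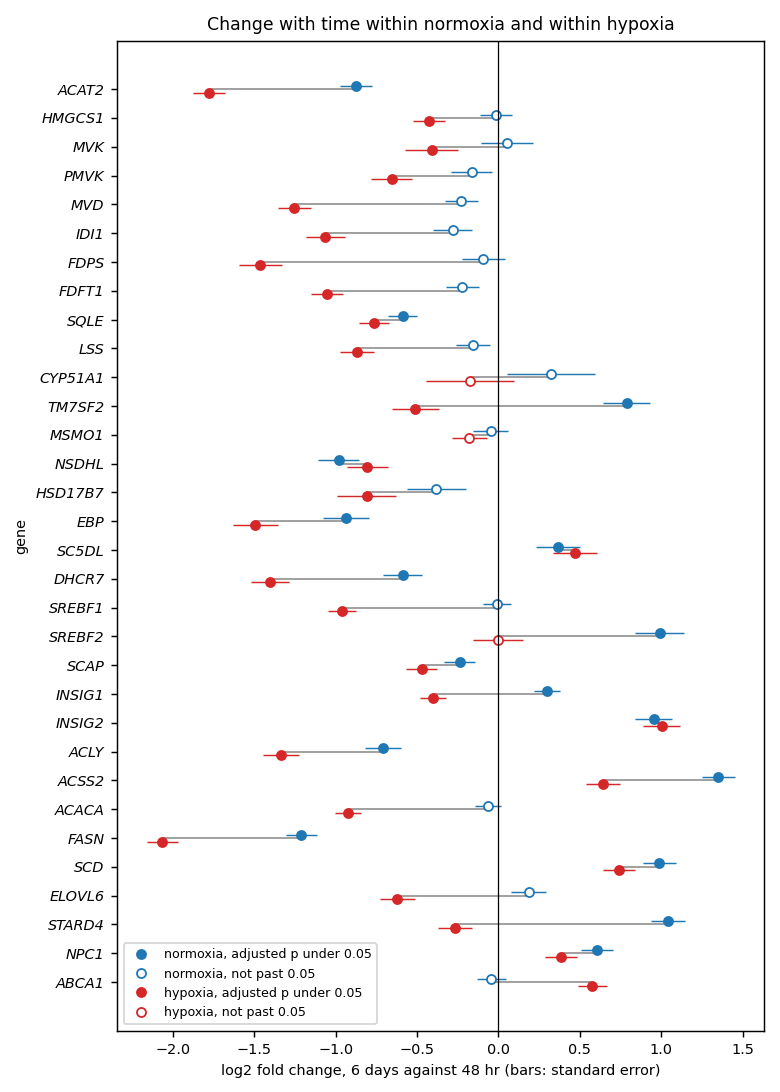
Log2 fold change from 48 hr to 6 days of each gene (vertical) within normoxia (blue) and within hypoxia (red), with bars of 1 standard error; filled points passed adjusted p under 0.05. FASN falls in both, STARD4 lies at 1.04 in normoxia and -0.27 in hypoxia, and SCD and INSIG2 lie to the right of 0 in both.

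The sum of 7 fibroblast markers, of which DCN, LUM and COL3A1 passed the filter, was higher in hypoxia at 48 hr and 6 days, and at 6 hr its groups overlapped. It was 23.5 to 28.5 RPKM in normoxia and 28.1 to 31.9 RPKM in hypoxia at 6 hr, 21.5 to 22.3 against 33.5 to 37.0 RPKM at 48 hr, and 28.8 to 29.5 against 39.9 to 42.8 RPKM at 6 days. PDGFRB and PDGFRA stayed at or below 0.201 RPKM in all libraries, and 0 of the 7 markers were at 0 in every library. The part of these markers in the results above was not tested. In bulk RNA, fewer cells of a kind and less RNA per cell cannot be told apart.

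Other lipid genes were counted by list. Of 17 tested genes of cholesterol uptake, transport, esterification and oxysterol sensing, 3 were higher and 7 lower in hypoxia at 6 days, with a median log2 fold change of -0.24. These are 17.6% and 41.2% of the list, beside 23.9% and 18.3% of all genes. LRP8, a lipoprotein receptor, was at 2.20 and 2.16 RPKM in normoxia and 0.87 and 0.90 RPKM in hypoxia (log2 fold change -0.95). MYLIP, a ubiquitin ligase that sends lipoprotein receptors to breakdown, was higher (log2 fold change 0.72).

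VLDLR, the receptor for very-low-density lipoprotein, rose at every time. It was at 0.19 and 0.30 RPKM in normoxia and 2.22 and 1.81 RPKM in hypoxia at 6 hr, at 0.38 and 0.37 against 5.64 and 4.74 RPKM at 48 hr, and at 3.77 and 3.28 against 21.3 and 20.3 RPKM at 6 days. Its log2 fold changes were 1.76, 2.70 and 2.41. SOAT1, which esterifies cholesterol, was lower at 48 hr (-0.34) and at 6 days (-0.38). The 48 hr call was lost in 6 alternatives (adjusted p 0.0537 to 0.192) and the 6-day call without library 10 (adjusted p = 0.0646).

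Of 25 tested genes of fatty acid elongation, desaturation and activation, 4 were higher and 9 lower at 6 days, with a median of -0.11. These are 16.0% and 36.0% of the list, beside 23.9% and 18.3% of all genes. FADS2, which makes polyunsaturated fatty acids, was higher at 48 hr (log2 fold change 0.50) and lower at 6 days (-0.63), and the 48 hr call was lost in 5 alternatives (adjusted p 0.0663 to 0.181). FADS3, its paralog, was higher at 48 hr (0.52), a call also lost in 5 alternatives (adjusted p 0.0714 to 0.19). MECR, a reductase of mitochondrial fatty acid synthesis, was lower at 6 days (-0.76), and the elongases ELOVL1 (0.61) and ELOVL3 (0.68) were higher. The ELOVL3 call was lost without library 9 or 11 (adjusted p 0.0868 to 0.131).

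Of 18 tested genes of triglycerides and lipid droplets, 3 were higher and 0 lower at 6 hr, 4 higher and 1 lower at 48 hr, and 7 higher and 3 lower at 6 days. The 6 hr counts are 16.7% and 0% of the list, beside 3.39% and 0.201% of all genes. Those at 48 hr are 22.2% and 5.56%, beside 9.24% and 2.89%. The 6-day counts are 38.9% and 16.7% of the list, beside 23.9% and 18.3% of all genes. C7orf68, an older symbol of HILPDA, which inhibits the lipase of lipid droplets, had log2 fold changes of 1.12, 1.13 and 2.10 at the 3 times. PLIN2, which coats droplets, was at 10.0 and 9.96 RPKM in normoxia and 19.3 and 19.2 RPKM in hypoxia at 6 hr, and at 13.3 and 12.3 against 38.4 and 38.95 RPKM at 6 days. Its log2 fold changes were 0.91, 0.80 and 1.56. The phosphatidate phosphatases LPIN2 (0.62, 0.68 and 1.05) and LPIN3 (0.44, 0.87 and 1.13) were higher too, except that LPIN3 did not pass at 6 hr and LPIN2 lost its 6 hr call without library 3 (adjusted p = 0.052).

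**Figure D5:**
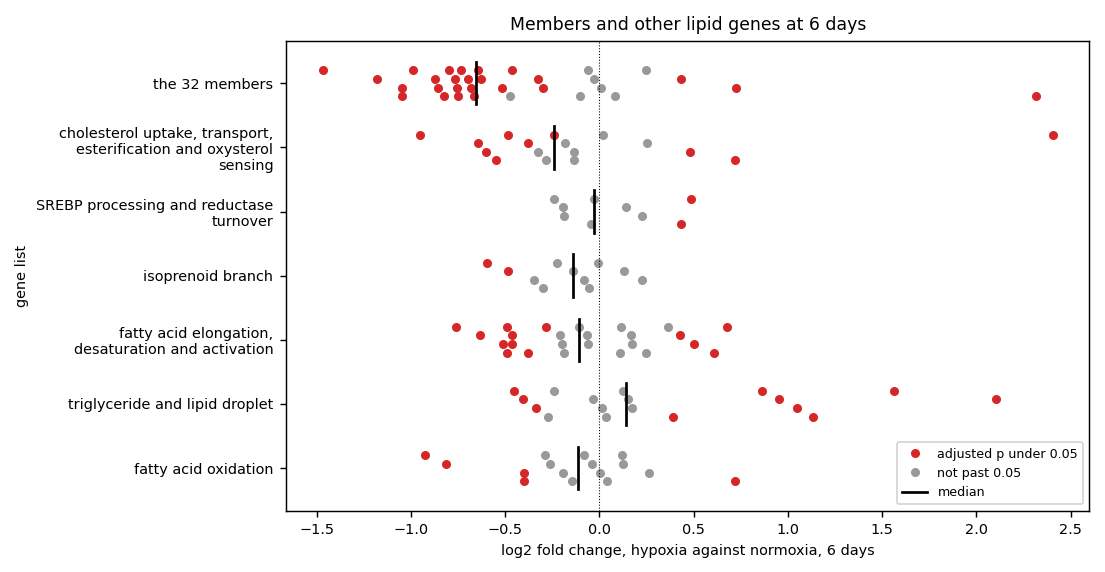
Log2 fold change of hypoxia against normoxia at 6 days (horizontal) for each tested gene of the 32 and of 6 other lipid lists (vertical); red points passed adjusted p under 0.05 and black bars are medians. The 32 genes have the lowest median, -0.66, and the triglyceride and lipid droplet list has a median of 0.14.

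Promoters were searched for short motifs in RefSeq's windows on GRCh38.p14, 250 bases before to 50 after each start; 28 of the 32 genes had 38 windows, and FASN, SQLE, ACAT2 and FDFT1 had none. Both strands were read for CCAAT, the box bound by NF-Y; TCACNCCAC, the core of a sterol regulatory element; and ACGTG and GCGTG, the core forms bound by hypoxia-inducible factors. CCAAT was in 63.2% of the members' windows and 34.6% of all 35116 windows, TCACNCCAC in 2.63% and 1.13%, ACGTG in 34.2% and 21.4%, and GCGTG in 76.3% and 36.5%. Forms may overlap on opposite strands, and a match is a description of letters, not a bound site. Counted by gene, CCAAT was in 71.4% of the 28 and 39.7% of all genes with a window. It was found in 14 of 18 genes that fell at 6 days, 1 of 3 that rose and 5 of 7 that were not called. The same counts were 13, 2 and 6 for GCGTG, 6, 2 and 3 for ACGTG, and 1, 0 and 0 for TCACNCCAC.

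A set of 4 windows is shown for genes with contrasting courses: INSIG2, higher throughout (chr2:118088300-118088599, ACGTG and GCGTG in capitals), SREBF2, the 1 gene with TCACNCCAC (chr22:41832855-41833154, that motif and CCAAT in capitals), and FDPS and SCD, lower and higher at 6 days (chr1:155308616-155308915 and chr10:100346983-100347282, CCAAT in capitals). All are on the plus strand, and matches on the other strand appear as the reverse complement.
INSIG2: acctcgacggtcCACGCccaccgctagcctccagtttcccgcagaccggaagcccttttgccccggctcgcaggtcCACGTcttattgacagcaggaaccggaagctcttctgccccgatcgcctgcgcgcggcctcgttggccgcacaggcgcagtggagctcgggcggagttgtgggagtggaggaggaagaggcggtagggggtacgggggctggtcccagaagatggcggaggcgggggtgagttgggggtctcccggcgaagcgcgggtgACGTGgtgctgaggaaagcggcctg
SREBF2: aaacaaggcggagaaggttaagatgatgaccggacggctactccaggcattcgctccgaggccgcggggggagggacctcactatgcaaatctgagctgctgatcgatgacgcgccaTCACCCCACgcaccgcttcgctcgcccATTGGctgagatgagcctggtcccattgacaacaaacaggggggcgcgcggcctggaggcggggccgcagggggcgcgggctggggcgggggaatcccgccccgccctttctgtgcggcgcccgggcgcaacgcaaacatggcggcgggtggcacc
FDPS: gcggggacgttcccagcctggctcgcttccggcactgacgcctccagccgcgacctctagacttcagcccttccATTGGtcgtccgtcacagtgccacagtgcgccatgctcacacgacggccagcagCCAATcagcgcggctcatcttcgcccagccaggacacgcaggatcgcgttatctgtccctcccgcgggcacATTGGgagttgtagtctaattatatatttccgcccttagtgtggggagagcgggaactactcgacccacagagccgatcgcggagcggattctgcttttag
SCD: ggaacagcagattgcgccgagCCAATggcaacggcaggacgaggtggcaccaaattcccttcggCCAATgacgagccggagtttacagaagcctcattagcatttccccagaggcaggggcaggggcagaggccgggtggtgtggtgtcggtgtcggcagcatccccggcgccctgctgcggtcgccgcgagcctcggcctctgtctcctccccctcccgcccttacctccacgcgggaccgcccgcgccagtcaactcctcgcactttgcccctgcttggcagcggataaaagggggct
The FDPS window held 3 matches of CCAAT and the SCD window 2. Any relation of motifs to the direction of change was not tested. The INSIG2 window held 2 of ACGTG and 1 of GCGTG, and the other window of that gene held 1 of each. GCGTG does not set INSIG2 apart: the SREBF2, FDPS and SCD windows each held 1 match too, not marked above. Those windows held 0 of ACGTG.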

How the data were processed

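Per the labels' protocols, 3 ug of total RNA per sample was depleted of ribosomal RNA, made into barcoded libraries with the SOLiD Total RNA-Seq kit, pooled and read for 75 bases on a 5500xl. The authors deposited RPKM for genes by symbol, and a second RPKM table of miRNA precursors. The submitters' processing notes list Partek 6.6 and hg19, with no role for either; the sources used here name no aligner or gene models. RPKM values are not counts, so limma 3.58.1 (R 4.3.3) was run on log2(RPKM + 0.5), fitting a mean for each of 6 groups with an intensity trend. Tests were two-sided, with Benjamini-Hochberg adjustment over the 11933 genes that reached 1 RPKM in 2 or more libraries. Residual degrees of freedom were 6 and prior ones 5.08. For precursors 166 of 939 were tested. A fold change on this scale understates the change of low genes. Overlapping and antisense genes may share reads, since no strand use in counting is stated. The 32 genes, the lists and the alternatives were chosen with earlier results of these data known. All 32 are named, and up to 4 called genes with the greatest change of each other list at each time; some of these are counted but not reported by name here. Reads per library were inferred from the steps of precursor values of up to 20 reads, of which 97.4 to 100% lay within 0.05 reads of whole numbers. Sequences are RefSeq's. The fit was tested on simulated data. Alternatives were the pseudocount (0.1 and 1), filters, quantile normalization, centring on a trimmed mean (20% at each end), no trend, each library left out in turn and a fit of 1 time alone.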

Additional observations from a re-analysis of the deposited data

Results flagged for a closer look

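The change of the hypoxia effect from 48 hr to 6 days passed limma's interaction test (Benjamini-Hochberg adjusted p under 0.05) in 18 of the 32 genes. Each value is the log2 fold change of hypoxia against normoxia at 6 days minus that at 48 hr. Among sterol enzymes it was -1.37 for FDPS, -1.30 for TM7SF2, -1.03 for MVD, -0.90 for ACAT2, -0.83 for FDFT1, -0.815 for DHCR7, -0.78 for IDI1 and -0.71 for LSS. Among the regulators it was -0.99 for SREBF2, -0.95 for SREBF1 and -0.70 for INSIG1. Among fatty acid genes it was -0.86 for ACACA, -0.85 for FASN, -0.81 for ELOVL6, -0.71 for ACSS2 and -0.62 for ACLY. It was -1.31 for STARD4, the sterol carrier, and 0.62 for ABCA1, the exporter.

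The calls on IDI1, LSS, DHCR7, SREBF2, ACLY, ACSS2 and ABCA1 were lost when single libraries were left out, with the lowest adjusted p of such a loss at 0.0508. ACLY, with the weakest call (adjusted p = 0.0305), lost it in 8 alternatives. Without 1 library, 12 to 19 of the 32 genes passed.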

How the results depend on the processing

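No paired analysis was possible because the libraries carry numbers from 1 to 12 and the groups compared share none. Leaving out each library in turn gave 1 to 4 called genes of the 32 for hypoxia at 6 hr, 3 to 7 at 48 hr, 22 to 26 at 6 days and 3 to 8 over all times. It gave 0 to 0 for the change of effect from 6 hr to 48 hr, 12 to 19 from 48 hr to 6 days, 0 to 7 for normoxia and 2 to 10 for hypoxia from 6 hr to 48 hr, and 14 to 19 and 24 to 29 from 48 hr to 6 days. The count at 6 hr was 4 without library 1. At 48 hr it was 3 without library 6, 7 or 8. Over all times it was 3 with no filter and 3 without library 7, 9, 10 or 11. The change of effect from 6 hr to 48 hr had 1 call with quantile normalization and 1 with trimmed-mean centring. Normoxia from 6 hr to 48 hr had 7 calls without library 1. Hypoxia over that interval had 2 without library 4, 2 without library 7 and 3 without library 8. The 6-day count was 26, with 3 higher and 23 lower, under both other scalings. Quantile normalization turned 3 values of normoxia from 48 hr to 6 days, to 0.2069 for HMGCS1, 0.2109 for SREBF1 and 0.2018 for ACACA, and the cause was not tested. Values under alternatives were followed only for the 32 genes and the genes picked from the other lists. Of these values 7402 stayed on their side, 207 lost and 69 gained a call. Over all genes, calls were 94.4%, 76.2% and 56.6% higher at the 3 times, 76.1%, 57.9% and 45.3% with quantile normalization, and 76.2%, 56.6% and 49.2% with trimmed-mean centring. Requiring 5 RPKM moved the median of all genes from 48 hr to 6 days by -0.12 in normoxia and -0.11 in hypoxia. Depth limits the precursor values, and 2 libraries a group limit all tests.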

Other observations

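Of 9 genes of SREBP processing and related turnover, 2 were higher and 0 lower in hypoxia at 6 days by limma's test, with 1 lower at unadjusted p under 0.05. The higher ones are 22.2% of the list, near the 23.9% of all genes. C12orf49, an older symbol of SPRING1, which is needed for SREBP cleavage, was among the 2 (log2 fold change 0.43, adjusted p = 0.0154). The C12orf49 call was lost without library 9, 10 or 11 (adjusted p 0.0638 to 0.103). Of 11 genes of the isoprenoid branch, 2 were lower at 6 days, 18.2% of the list and near the 18.3% of all genes. They were COQ2 (-0.59) and PDSS1 (-0.49), both of ubiquinone synthesis. COQ2 was also lower at 48 hr (-0.37), a call lost when any library of that time was left out (adjusted p 0.0577 to 0.114), and the PDSS1 call was lost without library 10 or 12 (adjusted p 0.0666 to 0.0809).

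Of 16 tested genes of fatty acid oxidation, 1 was higher and 4 lower at 6 days, 6.25% and 25% of the list beside 23.9% and 18.3% of all genes. ECI1, an isomerase of unsaturated fatty acids, was at 51.4 and 58.8 RPKM in normoxia and 28.2 and 29.2 RPKM in hypoxia (log2 fold change -0.93). HADH, a dehydrogenase of the same spiral, was at 15.1 and 16.3 against 8.16 and 9.29 RPKM (-0.82), and ACADM was lower by less (-0.40). CPT1B, a carnitine palmitoyltransferase, was higher at 48 hr (1.18) and at 6 days (0.72), while its paralog CPT1A was lower at 48 hr (-0.43). CPT1B was low at 48 hr, at 0.19 and 0.12 RPKM in normoxia and 0.86 and 1.13 RPKM in hypoxia. Its fold change at that time therefore depends on the pseudocount of 0.5. ACADVL was higher at 48 hr (0.36). The calls on CPT1A (adjusted p 0.069 to 0.0937) and ACADVL at 48 hr were lost when single libraries were left out.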
